A study of Mus musculus with 15 samples.

Results

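Leukemic bone marrow with a low level of GFI1 (group KD) was compared with marrow in which human GFI1 sits at the murine locus (group 36S), both untreated. The comparison takes 6 of the 15 libraries of the series, 3 in each group, and rests on the 13109 of 18075 genes in the table that had a value of at least 10 in 3 or more of these 6 libraries. The labels state the interest of the study as the transcriptome of leukemic marrow at different forms and levels of GFI1. Lineage-depleted marrow cells of the donor mice were transduced with a retrovirus for the MLL-AF9 fusion and a GFP reporter. Sorted GFP-positive cells went into recipients irradiated with 7 and 3 Gy, the leukemias were passed on in recipients irradiated with 3 Gy, and poly(A) RNA of total marrow from the quaternary recipients was sequenced. All libraries are of strain C57BL/6.

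Group 36S has the genotype GFI1 KI/KI and group KD has the genotype GFI1 KD/KD, in which 10 to 20% of the human gene is expressed. Group 36N, used beside some results, expresses the 36N variant of the human gene. All 3 groups therefore carry a human allele in place of the mouse gene, and all carry MLL-AF9. The host cells left in total marrow were not removed, so fewer cells of a type and less RNA per cell cannot be told apart. In the sample titles the number after the oncogene runs from 1 to 3 in 36S and is 1 in all KD and all 36N libraries. Its meaning is not given, and whether the libraries of a group come from separate leukemias is not stated. If they share 1, genotype and leukemia cannot be told apart. P-values measure only the spread between these samples.

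GFI1 is a zinc finger protein that binds DNA and recruits the histone demethylase LSD1 and the CoREST corepressor to silence genes. In the marrow it is known for keeping progenitors on the granulocyte path and for holding back monocyte and macrophage genes. MLL-AF9 joins the DNA-binding part of MLL to a partner of the transcription elongation machinery and keeps a set of stem cell homeobox genes switched on.

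The deposited values are normalized counts, and fold changes are differences of mean log2(normalized count + 1), KD minus 36S. They understate changes of genes near 0. The test was limma-trend, a linear model that draws the spread of each gene toward a trend with expression level. Benjamini-Hochberg adjustment was over the 13109 genes, and "rose", "fell" and "passed" mean an adjusted p under 0.05. Of the tested genes, 11.5% passed, 6.61% higher and 4.86% lower in KD. These are the shares against which counts of a gene list are read below. A change of at least 4-fold was seen for 146 of the higher and 149 of the lower genes. Groups that did not overlap were seen for 31.5% of genes, 15.7% higher and 15.8% lower in KD. Among the genes that passed, 0 had overlapping groups, so such a gap adds nothing to a call. A gene that reached the filter through 1 group alone could be called only as higher in that group. The summed values ran from 11265945 to 11929912 in 36S and from 11650329 to 13032511 in KD. Bringing libraries to equal totals shifted the median gene from -0.01 to -0.13 and turned the split of calls from 57.6% higher to 39.4% higher, so the direction of small differences depends on the scale. The first principal component, with 54.3% of the variance, separated the groups, and 36S library 1 and KD library 8 lay at opposite ends of the second. KD library 8 was lower than KD 7 and 9 in short transcripts, with a median log2 difference of -0.33 over the 3239 genes of the shortest transcripts and 0.27 over the 3233 of the longest. The same genes had median log2 fold changes of 0.07 and -0.07 between KD and 36S. Of the shortest, 8.18% passed higher and 3.3% lower in KD, and of the longest 5.17% and 5.97%. 36S library 1 leaned the other way from KD library 8, with median log2 differences from 36S 2 and 3 of 0.16 and -0.15. The part of length in the results below was not tested.

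**Figure D1:**
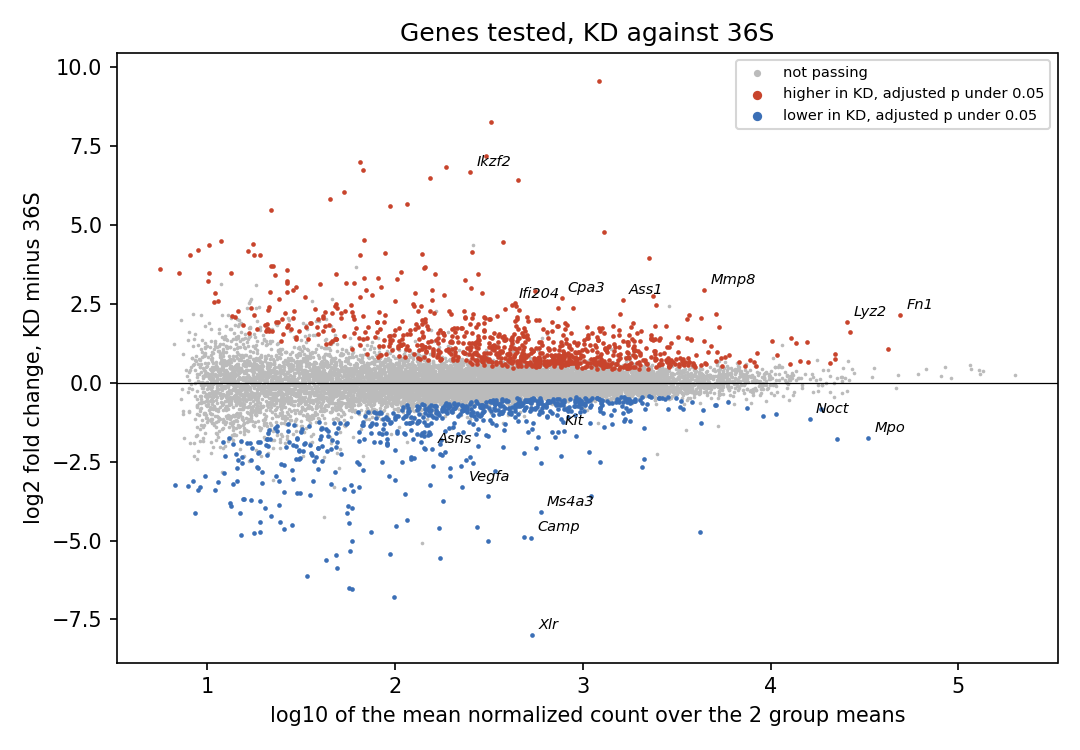
Log2 fold change of each of the 13109 tested genes against the log10 of its mean normalized count, with genes past an adjusted p of 0.05 in red (higher in KD) and blue (lower in KD). Fn1, Lyz2 and Mmp8 stand out among abundant genes above 0, and Mpo among those below 0.

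Six4 (mm10 chr12:73099609-73113456), a homeobox transcription factor gene, stood at 574, 593 and 553 normalized counts in 36S libraries 1 to 3 and at 32.8, 77.3 and 39.5 in KD libraries 7 to 9. All 36S libraries were alike and lay above all KD libraries (log2 fold change -3.60, SE 0.29, adjusted p = 1.5e-04).

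Of 20 MLL fusion target genes tested, 4 fell, Mylk, Cdk6 and Myc among them, and 1 rose (Mef2c, a transcription factor gene, 0.87), with a median of -0.22, or 2 fell without 36S library 2 or KD library 9. Mef2c passed with all libraries and without 36S library 3, and missed the threshold without any 1 of the other libraries (adjusted p from 0.0582 without 36S library 1 to 0.0986 without KD library 9). Mylk, a myosin light chain kinase gene, fell from 328, 488 and 396 to 76.8, 61.2 and 78.4 (log2 fold change -2.46). The cyclin-dependent kinase gene Cdk6 was at 20885, 24108 and 26312 in 36S and 13456, 14139 and 12059 in KD (-0.84, adjusted p = 0.013). Without 36S library 2, 36S library 3 or KD library 9 Cdk6 did not pass (adjusted p = 0.0827, 0.0597 and 0.0691). Hoxa9 (1741 ± 150 in 36S and 2327 ± 262 in KD, SD, n = 3; log2 fold change 0.42, adjusted p = 0.081 by limma-trend) and Meis1 (1228 ± 193 and 963 ± 180; -0.35, adjusted p = 0.23) did not pass. Both homeobox genes belong to the known MLL-AF9 program, and both were present in every library. Of 20 MLL complex and elongation partner genes, 3 were lower (Aff1 -0.82, Mllt1 -0.71 and the histone methyltransferase gene Dot1l -0.50), and 0 were called without 36S library 2 or KD library 9.

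Mouse Gfi1 and the human allele were not analysed here, so the genotype labels were not checked on the targeted gene. The 13 tested genes of the GFI1 corepressor complex had a median of 0.00, and 0 passed in either direction by limma-trend, with 3 at an unadjusted p under 0.05. Kdm1a, which encodes LSD1, stood at 288, 366 and 299 in 36S and 309, 345 and 394 in KD, and the groups overlapped (log2 fold change 0.14, adjusted p = 0.65). In a list of 18 known GFI1-repressed genes, 5 rose and 2 fell, and 10 had a positive fold change. The median of 0.17 became 0.05 with equal totals. Gfi1b, the close relative of GFI1 in the red cell and platelet lineages, rose from 11.7, 4.62 and 8.42 to 55.2, 69.7 and 48.4 (log2 fold change 2.73, adjusted p = 0.0035). Irf8, the interferon regulatory factor of monocytes and dendritic cells, rose from 2538, 3334 and 3022 to 6605, 6669 and 6645, with almost no spread in KD. The other 3 that rose were Egr2 (1.78), Id2 (1.14) and the M-CSF receptor gene Csf1r (0.98). Each of these lost its call without KD library 9 (adjusted p = 0.128, 0.0586 and 0.0765), when 2 of the list remained, and 7 rose without KD library 8. Egr2 also did without 36S library 1, 36S library 3 or KD library 7 (0.0648, 0.0811 and 0.0504), and Id2 and Csf1r without 36S library 2 (0.0546 and 0.0811). The 2 that fell were Ets1 (-1.28) and Cdkn1a (-0.68). Ets1 did not pass without 36S library 1 (-0.86), 36S library 2, KD library 7 or KD library 9 (adjusted p = 0.103, 0.11, 0.128 and 0.163), nor Cdkn1a without 36S library 2 or 3 (0.065 and 0.0651).

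Of the 8 interferon regulatory factor genes tested, 4 rose, namely Irf7 (1.18), Irf8 (1.17), Irf5 (1.02) and Irf9 (0.67), and Irf8 alone did so without 36S library 2 or KD library 9. The Krüppel-like factor genes Klf2 and Klf4 were the 2 of 13 KLF genes that rose. Klf4, a monocyte factor, went from 472, 956 and 870 to 2261, 2332 and 2460 (log2 fold change 1.68, adjusted p = 0.0023), and Klf2, known from quiescent lymphocytes and endothelium, from 249, 299 and 314 to 933, 875 and 1020 (1.72). C/EBP factors and PU.1 drive granulocyte and myeloid programs. Of 8 genes listed under these names, 1 fell, Cebpz (-0.61), which shares the name but is not a C/EBP factor of that kind. Cebpz did not pass without any 1 of the 36S libraries or KD library 9 (adjusted p from 0.0608 to 0.144). The list median of 0.04 became -0.08 with equal totals. Spi1, which encodes PU.1, stood at 3684 ± 224 in 36S and 4977 ± 511 in KD (SD, n = 3; log2 fold change 0.43, adjusted p = 0.071 by limma-trend), and Cebpa stood at 1762, 1436 and 1399 against 1254, 1264 and 1708 (adjusted p = 0.67).

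Lineage factors outside the monocyte path also rose. Of 20 Gata, Scl and Ikaros genes tested, 5 rose and 1 fell, although the median of the list was 0.12 and became -0.00 with equal totals. Ikzf2 (Helios), an Ikaros factor of T cells, stood at 18.8, 0.441 and 2.67 in 36S and at 536, 570 and 376 in KD. Prdm16, a zinc finger gene of blood stem cells, stood at 3.64, 7.26 and 0 against 307, 310 and 288. Both were close to silent in 36S and clearly present in every KD library (log2 fold changes 6.69 and 6.49). With values this near 0 in 36S, leaving out 1 library moved the estimates, to 7.73 without 36S library 1 and 5.84 without 36S library 2 for Ikzf2, and to 7.13 without 36S library 2 and 5.61 without 36S library 3 for Prdm16. Prdm16 passed the filter through the KD libraries alone, so it could only be called higher, and leaving out a KD library took it below the filter. Ikzf3, the Ikaros factor Aiolos of B cells, rose from 63.1, 26.3 and 33.9 to 192, 197 and 244 (2.42). Gata2, a factor of stem, mast and eosinophil cells, rose from 543, 447 and 417 to 1230, 1013 and 1017 (1.21, adjusted p = 0.0013). The stem cell factor gene Hlf fell from 59.3, 47.5 and 24.9 to 2.88, 6.87 and 2.72 (-3.13). Hlf could only be called lower, and is not tested when a 36S library is left out, since the KD libraries are all under 10.

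**Figure D2:**
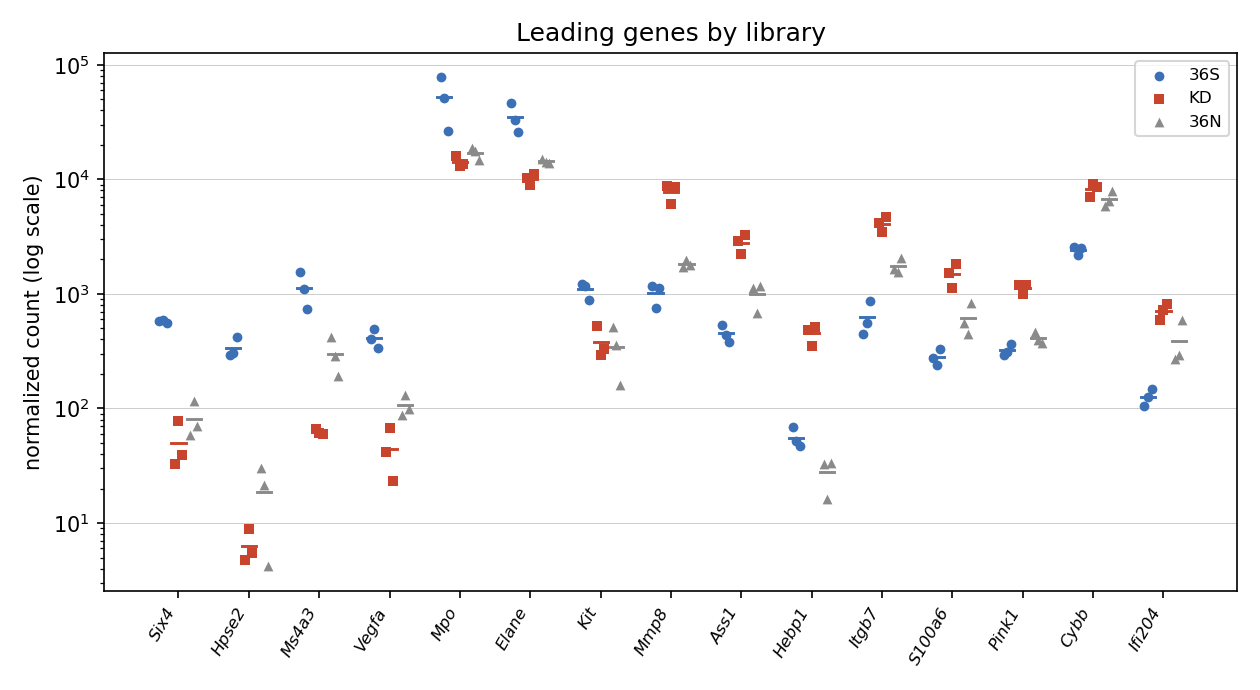
Normalized counts of 15 genes on a log scale, with 1 point per library and a bar at the mean of the 3 libraries of 36S (blue circles), KD (red squares) and 36N (grey triangles). KD and 36S points do not overlap for any gene shown, as for all genes that passed. The 36N points lie between both groups for several, such as Ms4a3, Vegfa and Ass1, but below both for Hebp1.

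The leading increases were in genes of several kinds. Mmp8 (chr9:7558456-7568485), which encodes neutrophil collagenase, rose from 1184, 750 and 1136 to 8808, 6112 and 8543 (log2 fold change 2.94). Ass1, an enzyme that makes arginine from citrulline, rose from 537, 440 and 380 to 2905, 2247 and 3272 (2.63). In each of these genes the lowest KD library was above the highest 36S library, which was part of the rule that chose them.

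Hebp1, which encodes a heme-binding protein whose peptide attracts phagocytes, rose from 68.9, 51.5 and 46.9 to 483, 352 and 519 (log2 fold change 2.99). Its neighbour Fam234b, whose annotation overlaps that of Hebp1 by 45 bases, rose as well (1.08), but not without 36S library 2 or KD library 9 (adjusted p = 0.0605 and 0.0644). Itgb7, an integrin chain for homing to the gut, rose from 445, 561 and 873 to 4189, 3442 and 4712 (2.76). Pink1, a kinase that marks damaged mitochondria, went from 295, 308 and 365 to 1192, 996 and 1207 (1.81), and the calcium-binding protein gene S100a6 from 274, 240 and 333 to 1515, 1119 and 1833 (2.38). Tarm1, a receptor of myeloid cells (2.86), Col19a1, a collagen gene (2.38), and Skida1 (2.34) also rose. Next to Skida1, the transcript A930004D18Rik went from 7.77 ± 3.83 to 89.5 ± 15.8 (SD, n = 3).

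Among the leading decreases, Xlr, an X-linked gene of lymphoid cells, went from 1226, 1003 and 995 to 1.9, 4.5 and 3.66. Ms4a3, a gene of granulocyte-monocyte progenitors, fell from 1543, 1110 and 746 to 65.8, 61.2 and 59.6 (log2 fold change -4.10). Mgl2, a C-type lectin gene, fell from 1375, 805 and 645 to 32.3, 22 and 34.7 (-4.89), and its lectin neighbour Clec10a did not pass (0.55, adjusted p = 0.41). Hpse2, a heparanase-like gene, was at 291, 304 and 423 against 4.71, 8.78 and 5.50 (-5.55). Hpse2 and Xlr are not tested when a 36S library is left out, since 2 libraries above 10 then remain. Both passed the filter through 36S alone, so they could only be called lower. Mid1, an X-linked ubiquitin ligase gene (-2.42), the mucin gene Muc13 (-2.79), Eps8, an actin regulator (-2.69), Wdr31 (-2.19) and Sgip1 (-1.43) also fell. Vegfa, the vascular growth factor gene, fell from 407, 493 and 338 to 41.3, 67.5 and 23.1 (-3.31, adjusted p = 4.9e-04).

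Neutrophil granule genes are made at successive stages. Primary granules fill at the promyelocyte stage, and of 13 tested genes 6 fell and 0 rose (median -0.72). Mpo, myeloperoxidase, stood at 77508, 51635 and 26502 in 36S and at 16010, 13003 and 13573 in KD, and Elane, neutrophil elastase, at 46491, 33262 and 25815 against 10331, 8861 and 11020. Mpo lost its call without 36S library 2 (adjusted p = 0.055) or KD library 9 (adjusted p = 0.0568), when 2 of the list still fell, and Elane kept it in each such fit (log2 fold change -1.77, adjusted p = 0.0016 with all libraries). Ms4a3, which is in this list, fell as given above. Serpinb1a (-1.03), Srgn (-0.97) and Ctsg (-0.72) were lower too, but each passed only with all 6 libraries or without 36S library 3 (adjusted p otherwise from 0.0503 to 0.137).

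Of 25 genes of secondary and late granules, 8 rose and 3 fell (median 0.39). The higher count was 4 without 36S library 2, 36S library 3, KD library 7 or KD library 9, and the lower count was 1 without 36S library 2 and 5 without 36S library 3. Those that fell were Camp, Ltf and Mrgpra2b. Mrgpra2b passed the filter through 36S alone, so it could only be called lower, and it is not tested when a 36S library is left out. Camp, the cathelicidin gene, stood at 2477, 437 and 212 in 36S and at 17.2, 13.7 and 30.9 in KD (log2 fold change -4.91, and -3.90 without 36S library 1 or -5.67 without 36S library 3). Ltf, lactoferrin, stood at 5443, 718 and 219 against 76.1, 55.4 and 113 (-3.59). Without 36S library 1 the estimate for Ltf was -2.33 and without 36S library 3 it was -4.64, and it did not pass without 36S library 2, KD library 7, KD library 8 or KD library 9 (adjusted p = 0.0824, 0.084, 0.0653 and 0.0878). 36S library 1 was highest in both and also in S100a8, which encodes a calprotectin chain, at 21822 against 2837 and 1365 in the other 36S libraries and 1076 to 2257 in KD. S100a8 did not pass (-1.36, adjusted p = 0.33). Those that rose included Mmp8, Stfa3 (3.65, and 3.06 without 36S library 1), Cybb and Cd177. Cd177, a neutrophil surface protein, went from 2105, 1388 and 1688 to 3955, 3386 and 5195 (1.27, adjusted p = 0.0039).

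Genes of monocytes and macrophages were higher as a group. Of 19 tested markers 14 rose and 0 fell, with a median of 1.06, and the summed markers stood at 72941 to 81685 in 36S and 141107 to 196959 in KD. The count was 7 without KD library 9 and 13 at most. The genes with the largest gain in counts were Fn1 and Ly6c2. Fn1, fibronectin, went from 7543, 23833 and 29404 to 66011, 81560 and 85050 (log2 fold change 2.15, adjusted p = 0.014), or by 1.54 without 36S library 1, and did not pass without KD library 9 (adjusted p = 0.0656). Ly6c2, a surface antigen of inflammatory monocytes, was at 29268, 24797 and 26214 against 61590, 40568 and 69333 (1.06, adjusted p = 0.022), and missed the threshold without 36S library 2, 36S library 3, KD library 7 or KD library 9 (adjusted p = 0.13, 0.0798, 0.0719 and 0.0961). Lyz2, lysozyme, rose from 10509, 9517 and 11388 to 33691, 33735 and 54379, and Adgre1, which encodes the macrophage antigen F4/80, from 453, 584 and 529 to 1250, 1098 and 1500 (1.29).

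Lysosomal genes rose beside them, 15 of 36 tested with 0 falling (median 0.53). The count was 6 without 36S library 2 and 20 without KD library 8. The cathepsin gene Ctsh went from 1173, 1108 and 1396 to 4737, 3253 and 4880 (log2 fold change 1.79, adjusted p = 3.8e-04). Ctss, a cathepsin that trims the class II invariant chain, went from 1548, 2048 and 2628 to 5882, 4018 and 6501 (1.4), and Gpnmb, a membrane glycoprotein of phagocytes, from 299, 638 and 874 to 1969, 2848 and 2848 (2.19). As for all genes that passed, no KD library fell within the 36S range for these. Psap (1.26) and Ctsc (1.17), which take part in lipid and protein breakdown, rose as well.

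Surface receptors moved the same way. Of 33 Fc receptor and ITAM adaptor genes, 13 rose and 1 fell (median 0.59), from 3 without KD library 9 to 16 without KD library 8. Clec12a, an inhibitory lectin receptor of myeloid cells, rose from 1076, 659 and 593 to 4762, 3354 and 4332 (log2 fold change 2.45). Clec7a (dectin-1), the receptor for fungal glucan, rose from 673, 832 and 936 to 2409, 2014 and 2498 (1.51). Of 23 scavenger receptor, complement and efferocytosis genes 7 rose and 0 fell, among them Stab1, from 78.8, 118 and 220 to 855, 869 and 1205 (2.91), and Msr1 (2.77), and 4 rose without KD library 9. Of 19 receptors for chemokines and other attractants 7 rose and 0 fell (median 0.81), 4 of them without 36S library 2 or KD library 9. Ccr2, with which monocytes leave the marrow, went from 1046, 1212 and 1516 to 3089, 3267 and 3774 (1.44, adjusted p = 7.2e-04). S1pr4 (2.27) and the formyl peptide receptor gene Fpr2 (2.17) were the largest of the rest.

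Of 31 Toll-like, NOD and inflammasome genes, 8 rose and 2 fell, and 0 fell without any 1 of the 36S libraries. The inflammasome sensor gene Nlrp3 rose from 77.7, 132 and 176 to 419, 580 and 508 (log2 fold change 2.02), and Tlr13 (1.72), Cd14 (1.66) and Tlr2 (1.12) rose with it. The paired genes Nlrp1a and Nlrp1b went opposite ways. Nlrp1a was at 197, 179 and 215 in 36S and 0, 4.63 and 0 in KD, while Nlrp1b was at 20.2, 67.4 and 65.4 against 431, 596 and 485. The 36N libraries resembled 36S in both, with Nlrp1a at 171, 200 and 255 and Nlrp1b at 48.8, 53.4 and 97.5. These genes are near copies of each other, and how reads were split between them is not known. Without KD library 8 the estimate for Nlrp1a was -7.62 against -6.79 with all libraries, and it is untested when a 36S library is left out. Nlrp1a passed the filter through 36S alone, so it could only be called lower.

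Cytokine receptors were mixed: of 26 tested, 8 rose and 2 fell. The fall was in Kit, the stem cell factor receptor, from 1217, 1183 and 892 to 524, 293 and 332 (log2 fold change -1.55, adjusted p = 0.0027), and in the decoy receptor Il1r2 (-2.84). Il6st, the shared chain of the interleukin 6 receptors, rose from 893, 1612 and 1837 to 4483, 7302 and 5304 (2.01). Without KD library 9 the higher count was 1. Of 27 adhesion and migration genes 12 rose and 0 fell (median 0.52), or 6 without 36S library 2 or KD library 9. Itga1, the collagen-binding integrin chain, rose from 1400, 1940 and 2275 to 7276, 10411 and 7468 (2.17). Vcam1, a ligand for integrins, rose from 201, 104 and 86.7 to 672, 402 and 451 (2.01). Of 11 NADPH oxidase and nitric oxide genes 4 rose, led in abundance by Cybb, the membrane subunit of the oxidase, from 2552, 2189 and 2500 to 7010, 9037 and 8526 (1.76, adjusted p = 1.7e-04). Sod3 (4.54) and Hmox1 (1.11) were among the others, and Sod3 passed the filter through the KD libraries alone, so it could only be called higher. Cybb alone passed without KD library 7 or KD library 9, when Sod3 is not tested.

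**Figure D3:**
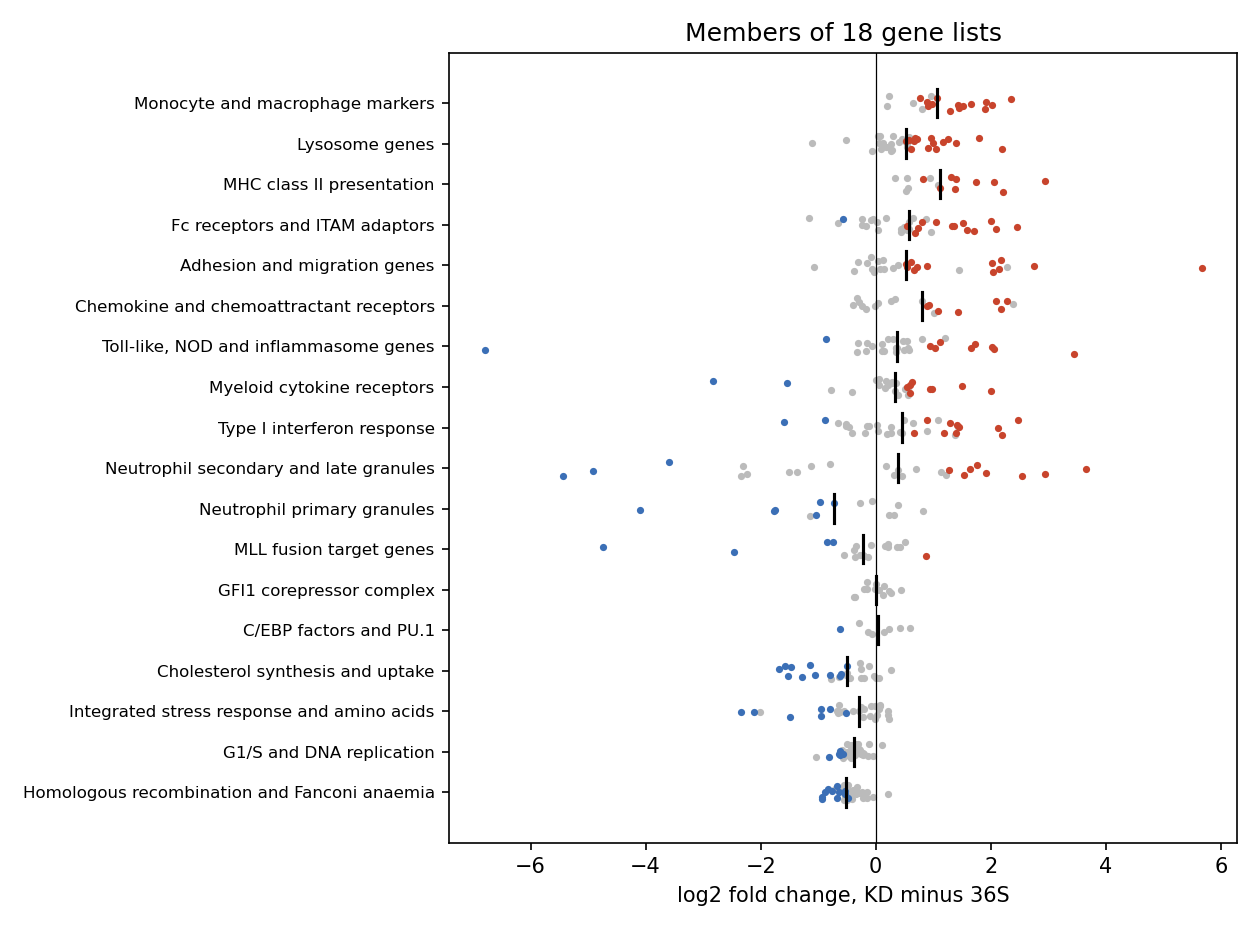
Log2 fold change of the tested members of 18 gene lists, with 1 point per gene, red for genes past an adjusted p of 0.05 and higher in KD, blue for those lower, grey for the rest, and a black line at the list median. Monocyte markers and class II presentation genes have medians of 1.06 and 1.11, primary granules -0.72, and the corepressor list lies around 0.

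MHC class II genes present peptides to helper T cells, and of 15 genes of this pathway 9 rose and 0 fell (median 1.11). H2-Eb1 went from 12, 11.2 and 23.2 to 83.2, 131 and 158 (log2 fold change 2.95, adjusted p = 0.0014), H2-Aa from 80.9, 32.6 and 58.1 to 193, 223 and 377 (2.22), and H2-Ab1 from 102, 82.0 and 107 to 283, 408 and 567 (2.05). Together with H2-Ob (1.39, adjusted p = 0.014, lost without 36S library 2 at 0.0664 or KD library 9 at 0.0746) they form an unbroken row of tested genes on chr17:34238903-34316674. Ciita, the master regulator of the class, stood at 16.9, 14.6 and 39.7 in 36S and between 27.8 and 88.9 in KD, and did not pass (0.94, adjusted p = 0.30). By contrast, 1 of 17 genes of MHC class I and antigen processing rose (H2-T23, 0.94), or 3 without KD library 8. The class II count was 6 without 36S library 2 or KD library 9. The bases before the starts of the 2 chain genes that rose most are shown because they hold the letters of the Y box, an inverted CCAAT element known from class II promoters, in capitals (ATTGG, searched on both strands). They come from RefSeq on GRCm38.p6, 5′ to 3′ on the gene's strand.
H2-Eb1: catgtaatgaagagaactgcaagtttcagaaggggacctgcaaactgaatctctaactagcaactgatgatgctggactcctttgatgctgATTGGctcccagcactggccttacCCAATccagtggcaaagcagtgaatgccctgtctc
H2-Aa: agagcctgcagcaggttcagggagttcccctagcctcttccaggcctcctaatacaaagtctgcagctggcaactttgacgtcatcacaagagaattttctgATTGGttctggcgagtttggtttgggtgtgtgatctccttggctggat

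These windows are chr17:34305717-34305866 on the plus strand and chr17:34287824-34287973 on the minus strand, each 150 bases long. In the 250 bases before the start, 6 of 10 class II genes with a listed promoter held ATTGG on either strand, as did 34.5% of all 27025 listed promoters, 31.9% of those of genes higher in KD and 41.2% of those lower. Of the cholesterol synthesis and uptake genes, lower in KD as a list (median -0.51), 16 of 19 listed promoters held it too. Of the genes that GFI1 is known to repress, 6 of 12 did. The short motif is common, and a match is a description of the sequence.

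A second row of neighbours lies in the Ifi200 cluster on chromosome 1, a family of interferon-inducible sensors of DNA. Of 11 members tested, 7 rose and 1 fell. Ifi211 rose from 68.2, 29.6 and 39.5 to 343, 409 and 521 (log2 fold change 3.25, adjusted p = 2.8e-04), Ifi204 from 105, 126 and 149 to 598, 716 and 822 (2.48), and Ifi205 from 21.2, 13.7 and 8.75 to 54.9, 84.5 and 104 (2.43). Ifi209 (1.05), Ifi214 (0.91), Ifi203 (0.89) and Mndal (0.86) rose by less, and Ifi214 lost its call without 36S library 2 (adjusted p = 0.0668). Ifi203 passed only with all libraries or without KD library 7 (adjusted p otherwise from 0.0562 to 0.155). Ifi213 went the other way, from 1117, 1316 and 1362 to 346, 264 and 174 (-2.32, adjusted p = 3.7e-04). Ifi207 (1.04, adjusted p = 0.057), Ifi206 (1.30, adjusted p = 0.052) and Ifi208 (0.68, adjusted p = 0.29) did not pass. Near copies in this family may share reads, and Mndal overlaps its neighbours in the annotation.

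The core letters of the GFI1 binding motif (AAATCAC, any base, then GC, on either strand) were searched in the same windows. They occurred in 0.144% of all listed promoters and in 9 of the 10034 tested genes with one. Of these 9, 3 are Ifi205, Ifi211 and Ifi207, out of 10 Ifi200 genes with a listed promoter. Ifi205 and Ifi211 were the 2 higher in KD among the 9, and Slco4a1, a transporter gene, was lower (-1.28, adjusted p = 0.012), though not past the threshold without 36S library 2 or KD library 9 (0.0608 and 0.0593). Of 12 listed promoters of the genes that GFI1 is known to repress, 0 held the letters in this window, which says only that they are not there. The 3 promoters are related copies and they are printed to show the shared stretch, with the motif in capitals on the reverse strand.
Ifi205: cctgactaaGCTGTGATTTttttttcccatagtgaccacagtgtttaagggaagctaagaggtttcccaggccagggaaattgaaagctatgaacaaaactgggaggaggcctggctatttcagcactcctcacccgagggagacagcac
Ifi211: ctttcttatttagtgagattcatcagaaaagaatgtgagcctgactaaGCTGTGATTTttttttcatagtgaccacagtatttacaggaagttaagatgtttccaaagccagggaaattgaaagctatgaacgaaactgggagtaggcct
Ifi207: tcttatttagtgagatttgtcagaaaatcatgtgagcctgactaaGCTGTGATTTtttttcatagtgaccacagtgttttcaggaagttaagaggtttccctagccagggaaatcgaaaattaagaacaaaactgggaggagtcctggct

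The windows are chr1:174031816-174031965, chr1:173913047-173913196 and chr1:173741810-173741959 of GRCm38.p6, all on the minus strand and from RefSeq. The motif lies at positions -201, -102 and -105 from the listed start, and the 60 bases nearest the start of Ifi205 are not shown. Whether GFI1 binds there was not tested.

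Interferon response genes outside this cluster moved less evenly. Of 33 tested genes in a list of the type I response, 10 rose and 2 fell (median 0.45), or 4 rose without KD library 9. The lower count was 4 without KD library 8. Ifit3, an antiviral effector, rose from 15.1, 12 and 21.3 to 62, 76.4 and 91.4 (log2 fold change 2.20, adjusted p = 0.0034), and Mx1, an antiviral GTPase, from 89.3, 112 and 140 to 236, 404 and 302 (1.44). Oas2, a sensor of double-stranded RNA, fell from 229, 225 and 169 to 46.5, 103 and 64.2 (-1.59, adjusted p = 0.0087). The interferon-stimulated response element (GAAA, any pair of bases, then GAAA, on either strand) was found before 11 of 22 such genes with a listed promoter, against 2.92% of those of all tested genes, 5.55% of those higher in KD and 4.16% of those lower. The promoter of Ifit3 is shown as an example, from chr19:34583379-34583528 on the plus strand of GRCm38.p6, with the element in capitals.
Ifit3: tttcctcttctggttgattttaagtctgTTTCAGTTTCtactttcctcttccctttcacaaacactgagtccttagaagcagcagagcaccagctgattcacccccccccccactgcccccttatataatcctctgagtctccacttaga

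**Figure D4:**
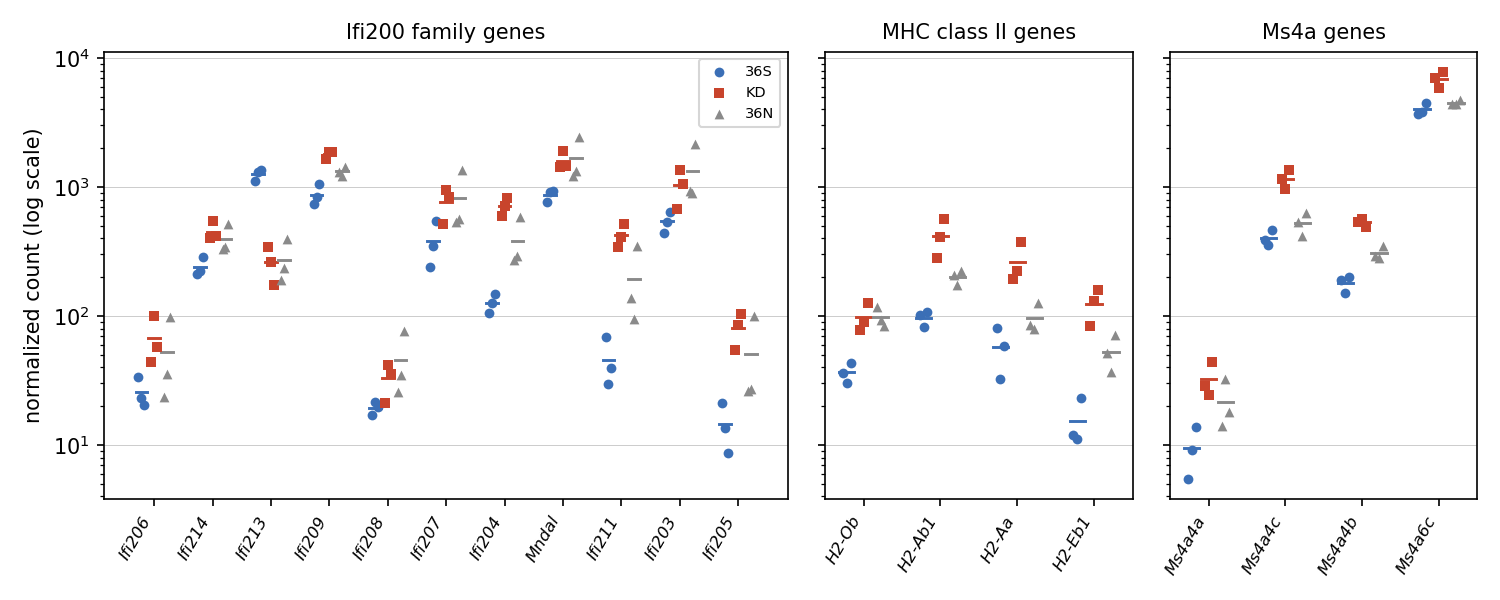
Normalized counts on a log scale of neighbouring genes in 3 clusters, in genome order, with 1 point per library and a bar at the mean for 36S (blue circles), KD (red squares) and 36N (grey triangles). In the Ifi200 panel KD lies above 36S for most genes and below it for Ifi213, and KD lies above 36S for all 4 class II and all 4 Ms4a genes shown.

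Several other rows of at least 4 neighbouring tested genes that moved together were family clusters too. The row of Gpr89, Acp6, Bcl9 and Chd1l on chr3:96868281-97610203, which fell, was not. The row of Ifitm3, Ifitm6, B4galnt4 and Pkp3 on chr7:141009586-141090510, which rose, was so only in part. Ifitm6 did not pass without 36S library 2, 36S library 3, KD library 7 or KD library 9 (0.121, 0.0822, 0.0905 and 0.126). On chr19:11375523-11482192 the membrane protein genes Ms4a4a (1.71), Ms4a4c (1.52), Ms4a4b (1.56) and Ms4a6c (0.78) rose. Ms4a4c went from 385, 358 and 460 to 1159, 972 and 1347 (adjusted p = 5.4e-04). Ms4a4a did not pass without 36S library 1, 36S library 2, KD library 7 or KD library 9 (0.102, 0.124, 0.0897 and 0.18), nor Ms4a6c without 36S library 2 or KD library 9 (0.0795 and 0.0622). Ms4a3 and Ms4a2 (-3.20, not tested when a 36S library is left out), from the same family and next to each other on that chromosome, fell. On chromosome 3 the signal regulatory genes Sirpb1a (2.01), Sirpb1b (1.55) and Sirpb1c (1.85) rose, and on chromosome 10 the inhibitory receptor genes Lilr4b (1.28) and Lilrb4a (1.05) rose. Sirpb1a and Sirpb1c did not pass without KD library 9 (0.0518 and 0.0696), nor Lilrb4a without 36S library 1, 36S library 2, KD library 8 or KD library 9 (0.107, 0.127, 0.0692 and 0.116). The 8 tested immunoglobulin kappa genes in a row on chromosome 6 and 4 heavy chain genes on chromosome 12 fell. Of the latter, Ighg1 did not pass without 36S library 1, 36S library 2 or KD library 7 (0.0593, 0.0583 and 0.0533), and Ighg2c is not tested without any 1 of the 36S libraries. Members of such families can share reads.

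Cholesterol synthesis and uptake genes were lower, 11 of 26 tested with 0 rising (median -0.51), and 5 fell without 36S library 2 or KD library 9. The enzymes span the pathway. Idi1, which acts on isoprenoid units, fell from 364, 473 and 387 to 176, 111 and 155 (log2 fold change -1.48). Sqle, which makes squalene epoxide, fell from 162, 196 and 148 to 66.6, 68.3 and 70.8 (-1.28), and Lss, which closes the sterol rings, from 135, 183 and 142 to 64.9, 52.3 and 37.1 (-1.58, adjusted p = 0.0055). Groups did not overlap for these, as for all genes that passed. Srebf2, the transcription factor that drives the pathway, was at 1336, 1592 and 1744 against 1077, 906 and 720 (-0.80, adjusted p = 0.018), and did not pass without 36S library 2 (adjusted p = 0.0835), 36S library 3 (0.0667) or KD library 9 (0.0738). Genes of cholesterol export and the LXR response went the other way, 5 of 14 higher and 1 lower (median 0.45). Abcg1, a pump for cholesterol, rose from 165, 138 and 369 to 819, 870 and 688 (1.95), and Apoe, which carries it, from 528, 693 and 1191 to 2808, 2358 and 3478 (1.91). Without 36S library 2 or KD library 9, 2 of these 5 passed.

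Of 30 fatty acid and lipid genes 2 rose and 4 fell, or 1 fell without 36S library 2 or KD library 9. Lpl, lipoprotein lipase, which releases fatty acids from circulating fat, rose from 966, 1459 and 1656 to 5490, 6032 and 6391 (log2 fold change 2.17, adjusted p = 2.2e-04). Fads2, a fatty acid desaturase, fell from 218, 153 and 118 to 56.7, 21.6 and 35.1 (-2.14), and the elongase gene Elovl7 rose (2.24). Of 31 glycolysis and pentose phosphate genes 2 rose and 3 fell. Without KD library 8, 5 rose, without 36S library 2, 1 fell, and with equal totals 6 fell, and the list median of 0.07 turned to -0.05 with equal totals. Hexokinase Hk1 fell from 2372, 2221 and 2350 to 1308, 1379 and 1112 (-0.87), whereas G6pdx, which opens the pentose phosphate branch, rose from 2420, 2328 and 2255 to 4042, 3735 and 4064 (0.76, adjusted p = 0.0041), and the lactate dehydrogenase chain gene Ldhb rose from 28.2 ± 8.05 to 137 ± 38.3 (SD, n = 3).

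Amino acid supply genes fell, 7 of 29 of the integrated stress response list with 0 rising (median -0.28), or 4 without 36S library 2 and 11 with equal totals. Asns, asparagine synthetase, went from 319, 275 and 173 to 66.8, 44.2 and 61.6 (log2 fold change -2.11, adjusted p = 0.0017). Atf5, a transcription factor of this response, went from 522, 500 and 668 to 210, 206 and 182 (-1.49). The amino acid transporter genes Slc1a5 (-0.96) and Slc7a1 (-0.95) were close to 2-fold lower. In the iron, glutathione and NRF2 list 6 of 26 rose and 2 fell. The transferrin receptor gene Tfrc fell from 297, 290 and 297 to 130, 127 and 81.6 (-1.4) and Txnrd1, thioredoxin reductase, by 1.03 on the log2 scale, while Mgst1, a glutathione transferase gene, rose from 378, 282 and 286 to 992, 731 and 1205 (1.61). The ferritin chain genes Fth1 (0.54) and Ftl1 (0.65) passed only with all libraries or without KD library 8 (adjusted p otherwise from 0.0802 to 0.227). Without 36S library 2, KD library 7 or KD library 9, 1 gene of this list was still higher, and without KD library 8, 11 were.

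Of 37 genes of G1/S and DNA replication 5 fell and 0 rose, 36 had a negative fold change and the median was -0.37. None passed without 36S library 1, 36S library 2 or KD library 9, and 13 fell with equal totals. The largest that passed was Mcm10, a replication initiation gene, at 788, 702 and 541 in 36S and 438, 349 and 366 in KD (log2 fold change -0.81, adjusted p = 0.018; 0.0534, 0.0889 and 0.0765 in those 3 fits). Of 32 G2/M and mitosis genes 0 passed by limma-trend (median -0.28), with 9 at an unadjusted p under 0.05, and 5 fell with equal totals. Mki67, the proliferation marker, stood at 27458, 24995 and 27548 against 23944, 21143 and 18552 (-0.34, adjusted p = 0.27). Among 36 homologous recombination and Fanconi anaemia genes 11 fell (median -0.52), 0 without 36S library 2 and 18 with equal totals, with Palb2 at 278, 312 and 322 against 169, 166 and 199 (-0.77, adjusted p = 0.016). Palb2 did not pass without 36S library 2 (adjusted p = 0.0894), 36S library 3 (0.0618) or KD library 7 (0.0513).

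Of 32 MYC and nucleolar genes 3 fell, 1 without 36S library 2 or KD library 9, 10 with equal totals and 7 with quantile normalization. Wdr12, of ribosome assembly, went from 677, 720 and 696 to 281, 276 and 341 (log2 fold change -1.23, adjusted p = 8.9e-04). Myc itself stood at 4264, 4634 and 3524 against 2714, 2062 and 2610 (-0.75, adjusted p = 0.016), short of the threshold without 36S library 2 (adjusted p = 0.0952) or KD library 9 (0.0528). Cell cycle inhibitors moved both ways. Cdkn2c, an inhibitor of the G1 kinases, rose from 874, 496 and 598 to 2512, 1561 and 1744 (1.57, adjusted p = 0.0032), while Cdkn1c fell from 67.3, 48.3 and 43.1 to 9.83, 6.25 and 12.5 (-2.38). Of 16 BCL2 family genes 3 rose, all of them death-promoting members (Bcl2l11 0.92, Bmf 0.89 and Bid 0.60). The 3 lost their calls without 36S library 2, Bid also without 36S library 1 or KD library 9, and Bmf without any 1 library other than 36S library 3, and the list median changed sign with equal totals (0.07 and -0.06).

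Markers of other marrow cells moved with the groups, and their part in the results above was not tested. Markers of myeloid blood cells were present in every library, with Ptprc (CD45) at 3863 ± 439 in 36S and 4416 ± 945 in KD (SD, n = 3) and Itgam (CD11b) at 3923 ± 447 and 6296 ± 92.1. Itgam passed (0.69, adjusted p = 0.011) but not without 36S library 3 or KD library 9 (0.0514 and 0.052). The progenitor marker Cd34 rose from 2844 ± 484 to 4509 ± 740 (0.67, adjusted p = 0.034 by limma-trend). It did not pass without 36S library 2, 36S library 3, KD library 7 or KD library 9 (0.162, 0.115, 0.106 and 0.0958). Of 14 stem and progenitor markers tested, 3 rose and 2 fell (median -0.19). Summed T and NK cell markers stood at 284 to 471 in 36S and 793 to 2528 in KD. Of 17 tested, 8 rose and 0 fell, or 3 rose without KD library 9. Among T and NK genes, Cd3g, Gzma and Gzmb passed the filter through the KD libraries alone, so they could only be called higher. They are not tested when a KD library is left out. Cd3e, a chain of the T cell receptor complex, was at 8.26, 15.8 and 23.7 against 49.8, 168 and 242 (log2 fold change 3.03), with KD library 7 the lowest of KD, and it did not pass without KD library 9 (adjusted p = 0.0556). Without KD library 7 its estimate was 3.69. These levels are small beside the monocyte sums.

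Of 15 B and plasma cell genes 3 fell and 0 rose, among them Iglc2 (-1.87), which did not pass without KD library 7 or KD library 9 (adjusted p = 0.0688 and 0.0894) and is not tested without any 1 of the 36S libraries. Igkc, the kappa light chain, stood at 2565, 5411 and 2696 against 645, 629 and 367, and Jchain, of secreted antibodies, at 296, 586 and 285 against 95.4, 52.1 and 38.3 (log2 fold change -2.65 for each). The list for mast cells, basophils and eosinophils had 11 tested genes, of which 5 rose and 1, Ms4a2, fell. Its sum was 1089 to 2006 in 36S and 3703 to 5912 in KD. Cpa3, mast cell carboxypeptidase, rose from 314, 142 and 190 to 1297, 1223 and 1452 (2.69, adjusted p = 2.8e-04). The eosinophil granule gene Prg2 was at 53, 22.4 and 13.5 against 1372, 295 and 496, highest in KD library 7 (3.86 without it). Siglecf rose from 310, 198 and 199 to 1010, 557 and 691 (1.66). Platelet markers were sparse, with 7 of 16 under 10 in every library, Pf4 and Ppbp among them, and 0 of 8 tested passed by limma-trend, with 3 at an unadjusted p under 0.05. Among erythroid markers 5 of 19 in the table were under 10 throughout, Hbb-bs and Klf1 among them.

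**Figure D5:**
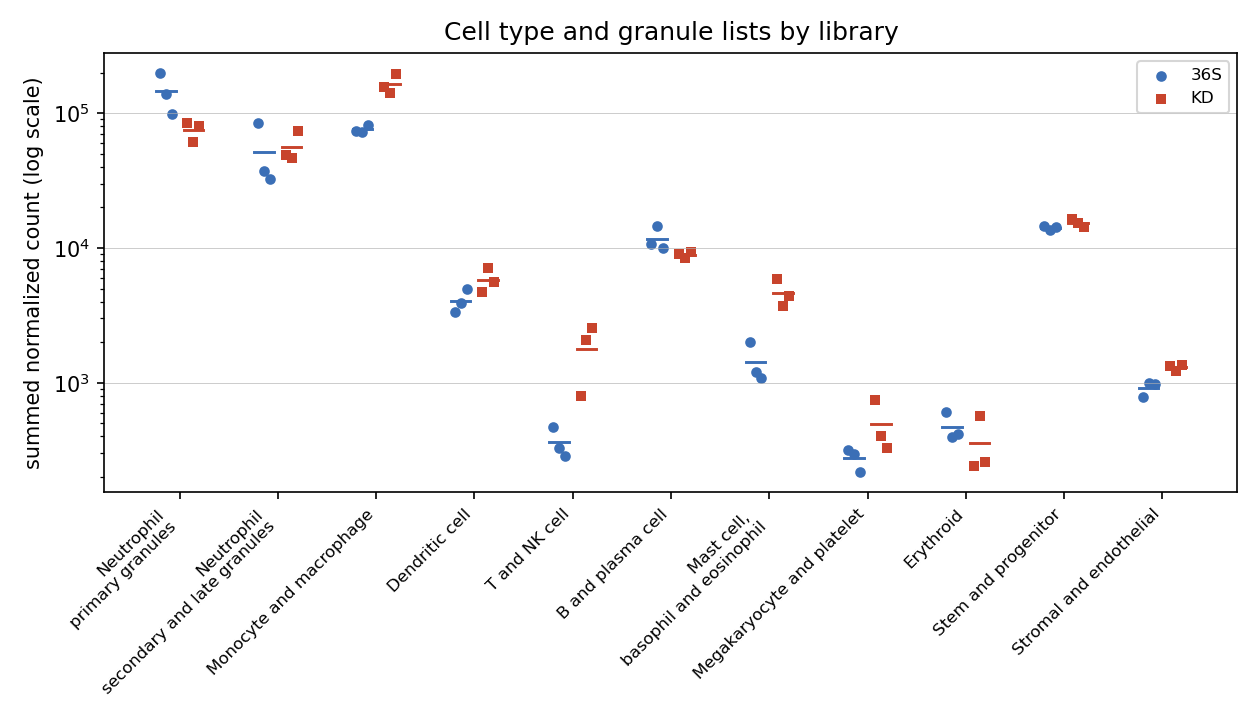
Summed normalized counts, on a log scale, of the members in the table of 11 cell type and granule lists, with 1 point per library and a bar at the mean of 36S (blue circles) and KD (red squares). The sums of the groups do not overlap for 7 of the lists, namely primary granules, monocytes, T and NK cells, B cells, mast cells, platelets and stromal cells. The stromal sum is higher in KD, although only 2 of its 9 tested members had a positive fold change (median -0.49).

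KD was also set against the 36N variant, with the same KD libraries. In this comparison 3.24% of 13118 tested genes passed (2.03% higher and 1.21% lower). The counts of 425 genes here and 1503 against 36S depended on KD library 8. Without it, 1986 genes passed against 36N and 2051 against 36S. Without KD library 9 they were 116 and 611. Some of the leading genes passed against 36N too, with KD outside the range of both other groups. Mmp8 stood at 1718, 1959 and 1802 in 36N (log2 fold change KD minus 36N 2.08, adjusted p = 1.1e-04), Pink1 at 469, 399 and 374 (1.45), Hebp1 at 33.1, 16.2 and 33.7 (4.03) and Gata2 at 414, 273 and 219 (1.89). Prdm16 and Ikzf2 were near 0 in 36N as in 36S, at 0.597 ± 0.753 and 22.1 ± 20.0 (SD, n = 3). Ms4a3 was intermediate in 36N, at 417, 288 and 192 (-2.18).

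Other genes that differed between KD and 36S did not pass against 36N. Mid1 was at 341, 276 and 557 in 36N (log2 fold change KD minus 36N 0.83, adjusted p = 0.11), Six4 at 58.9, 116 and 70.0 (-0.74, adjusted p = 0.32), Ifi213 at 191, 237 and 393 (-0.05, adjusted p = 0.94) and Col19a1 at 944, 1072 and 927 (0.34, adjusted p = 0.24). Kit (513, 355 and 161), Mpo (18760, 17540 and 14736) and Elane (15145, 14046 and 13892) were also below their 36S range in 36N, and none of them passed between KD and 36N. For Elane the 36N libraries all lay above the KD libraries (log2 fold change -0.52, adjusted p = 0.11). A p that misses the threshold does not show that the groups are alike. Of the lists, 5 of the 19 monocyte markers, 7 of the 36 lysosomal genes and 3 of the 15 class II genes were higher in KD than in 36N. In the mast cell, basophil and eosinophil list 6 of 10 were higher and 0 lower. Of the 25 secondary and late granule genes 3 were higher and 6 lower than in 36N (median -0.62).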

How the data were processed

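RNA sequencing libraries of untreated leukemic marrow were analysed, 3 each of 36S, KD and 36N, with the groups taken from the sample labels. The authors deposited normalized counts, a signal per gene made comparable between libraries. Salmon, DESeq2 and mm10 are named in the submitters' processing notes. How they were run is not given in the sources used here. Of 4 deposited tables, 2 were used. Their 36S values were identical (largest difference 0), so KD and 36N were compared across them. Tables with temozolomide-treated samples were not used here. The read depth before scaling is unknown, so no counting intervals are given.

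Values were tested as log2(value + 1) with limma 3.58.1 (limma-trend) in R 4.3.3 on the 6 libraries compared, for genes of at least 10 in at least 3 libraries, with Benjamini-Hochberg adjustment over all genes tested and a threshold of 0.05. The fit was tested on simulated data. Positions are from GENCODE M21 (17785 genes matched) and sequences from RefSeq promoters of GRCm38.p6 (10034 tested genes matched by symbol). Strand of counting is not given, so overlapping genes can share reads.

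Genes named are the 12 higher and 12 lower with the lowest adjusted p among genes with at least a 2-fold change, no overlap and either group mean at 200 or more, leaving out unnamed models and pseudogenes, the 6 with the largest difference in counts each way, up to 4 of the most changed members of each of 59 gene lists, and a fixed set of myeloid genes. Neighbours, cluster members and some further members were named after their values were seen. The comparison, the lists and the motifs were chosen with earlier results of these data known. The alternatives tried took a pseudocount of 0.5 or 5, dropped the filter or raised it to 50, scaled to equal totals or by quantiles, and used no trend, a robust trend, library weights, the spread of all 9 untreated libraries, and each library left out. Some items are not reported here.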

Additional observations from a re-analysis of the deposited data

How the results depend on the processing

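No paired analysis was possible because the titles give KD and 36S no shared replicate numbers. For KD against 36S, 1503 genes passed, and pseudocounts, filters, scalings, the robust trend and the spread of all 9 libraries gave 1349 to 1724, while 1007 passed without the trend. Library weights gave 4289. Leaving out 1 library gave from 591 (without 36S library 2) to 2051 (without KD library 8), with 611 without KD library 9, 965 without KD library 7, 976 without 36S library 3 and 1017 without 36S library 1. Fewer libraries enter these fits. For KD against 36N, 425 passed, 203 without the trend, 3721 with library weights, and from 116 (without KD library 9) to 1986 (without KD library 8) with 1 library left out. The cause of the rise without KD library 8 and with weights was not tested. Cebpa, at -0.13, had 0.0365 with library weights (adjusted p = 0.847). Ddx3y, a Y-linked gene at 0.05, had -0.0692 with equal totals and ranged from -0.0192 (without KD library 7) to 0.0972 (without KD library 8) with 1 library left out. The depth behind low values is unknown, and estimates of genes near 0 in one group move most with the pseudocount.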
